A study of Mus musculus with 24 samples.

Results

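The T-cell marker genes Cd3d, Cd3e, Cd3g, Cd4, Cd8a, Cd8b1, Foxp3, Lck and Il2rb were followed in RNA-seq data from retroperitoneal white adipose tissue of mouse offspring. They were chosen by name, as genes that mark T lymphocytes, and all 9 were found among the 56895 genes in the tables. Of these, 8 passed the filter on low values and were tested among 18399 genes over the 24 libraries, whereas Foxp3 reached 10 normalized reads in 1 library only and was not tested.

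The offspring were C57BL/6J males and females, per the labels (C57BL/6JRJ in the study's methods). For 8 weeks before mating and through gestation, their mothers were fed with vitamin D3 at 1.0 IU/g of diet (CTRL) or at 0.0 IU/g (VDD, vitamin D deficiency), and all mothers ate the control diet from delivery to weaning. From 6 weeks of age the offspring ate a low-fat diet (LF, AIN-93M) or a high-fat diet with 45% of its energy from fat (HF) for 8 weeks, and were fasted overnight before sampling. Maternal diet, offspring diet and sex gave 8 groups: CTRL LF, CTRL HF, VDD LF and VDD HF, each in males and in females. Each group held 3 mice and each mouse gave 1 library of polyadenylated RNA, so that 24 libraries were compared. The litter of a mouse and the batch of a library are not stated in the labels or methods, so littermates cannot be recognised and p-values measure the spread between these mice. Adipose tissue holds adipocytes together with vessels, stroma and immune cells, and in RNA of whole tissue fewer T cells and less RNA per T cell cannot be told apart.

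T cells recognise antigen through a receptor whose signal is carried into the cell by the CD3 chains, encoded by Cd3d, Cd3e and Cd3g. The co-receptors CD4 and CD8 (Cd4, Cd8a and Cd8b1) bind the antigen-presenting molecule and bring the kinase Lck to the receptor, which it phosphorylates. CD4 marks helper T cells and CD8 cytotoxic ones, Foxp3 is the transcription factor of regulatory T cells, and Il2rb encodes the receptor chain shared by IL-2 and IL-15, which natural killer cells carry as well. In adipose tissue, resident regulatory T cells are known from lean visceral fat and cytotoxic T cells from obese fat.

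The CD3 genes lie side by side within 40056 bases of chromosome 9. Cd3g and Cd3d are transcribed away from each other from start sites 1355 bases apart, and the start site of Cd3e lies 27825 bases beyond that of Cd3d. For these genes, the 250 bases before each start site are shown. They come from RefSeq on build GRCm38.p6 and run 5′ to 3′ on the strand of the gene. Capitals mark matches to any of 6 short motifs, searched on both strands: AGGAAG of ETS factors, TGTGGT of RUNX factors, CTTTGA of TCF and LEF factors, AGATAA of GATA factors, the E-box CANNTG and the TATA box TATAAA. The windows were chr9:44980432-44980681 on the minus strand for Cd3g, chr9:44981536-44981785 on the plus strand for Cd3d and chr9:45009612-45009861 on the minus strand for Cd3e.
Cd3g: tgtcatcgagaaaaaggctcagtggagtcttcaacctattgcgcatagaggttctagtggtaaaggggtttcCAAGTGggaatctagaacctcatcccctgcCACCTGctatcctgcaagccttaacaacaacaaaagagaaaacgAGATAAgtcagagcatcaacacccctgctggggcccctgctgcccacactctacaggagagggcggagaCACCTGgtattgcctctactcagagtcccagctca
Cd3d: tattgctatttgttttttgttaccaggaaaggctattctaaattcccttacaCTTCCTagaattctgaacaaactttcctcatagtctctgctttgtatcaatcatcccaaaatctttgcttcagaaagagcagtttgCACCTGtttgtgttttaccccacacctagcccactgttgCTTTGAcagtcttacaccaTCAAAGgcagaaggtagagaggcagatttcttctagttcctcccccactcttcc
Cd3e: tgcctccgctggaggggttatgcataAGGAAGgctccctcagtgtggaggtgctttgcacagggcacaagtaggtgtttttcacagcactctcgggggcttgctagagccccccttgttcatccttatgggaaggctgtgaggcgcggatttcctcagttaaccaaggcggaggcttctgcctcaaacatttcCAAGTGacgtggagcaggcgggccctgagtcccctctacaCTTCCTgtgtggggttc
An ETS match was found in Cd3d and, at 2 positions, in Cd3e, and such a match is present in 29.5% of 32851 windows of this length. TCF and LEF matches were found only in Cd3d among the 3 windows (13.8% of all windows) and a GATA match only in Cd3g (9.99%). E-boxes were found in all 3 (66.2% of all windows). No RUNX match (14% of all windows) and no TATA match (12.4%) lay in these 3 stretches. A match is a run of letters and says nothing of binding.

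The other members lie apart from this cluster. Cd8b1 and Cd8a are neighbours on chromosome 6, where Cd8b1 ends 35933 bases before Cd8a begins, and Cd4 lies on the same chromosome from 124864692 to 124888221. Lck is on chromosome 4, Il2rb on chromosome 15 and Foxp3 on chromosome X. Cd3e, Lck and Foxp3 overlap other annotated genes. Those over Cd3e (Gm48719 and Gm48720) had 5 reads and 1 read in the 24 libraries, and the one in Lck (Mir8119) had 0. Foxp3, with 87 reads in all libraries, overlaps Ccdc22 with 847 reads, Ppp1r3f with 357, Gm36995 with 110 and Flicr with 34, so its few reads are uncertain.

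The number of reads on genes ran from 13346779 to 18484346 per library, with a median of 15933506. Of these, the 9 members together received 106 to 1561 reads per library, so that each value rests on few reads. Levels below are normalized reads, the reads of a library divided by a size factor common to the 24 libraries. Expressed per kilobase of exon, the only scale on which different genes were compared, the median level over 24 libraries was 18.3 for Il2rb and 13.3 for Lck. It was 9.67 for Cd3d, 7.23 for both Cd3g and Cd8b1, 4.97 for Cd3e, 4.05 for Cd4 and 3.85 for Cd8a. Foxp3 came last with 0.47 per kilobase, and 3 libraries had 0 reads of it, a count that allows up to 3 reads per library. Adipocyte genes were high everywhere: Adipoq, the adiponectin gene, ranged from 44740 to 109700 normalized reads.

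A pair of libraries was set apart, as those with the highest mean log2 level of Cd3d, Cd3e and Cd3g. High levels of these genes there follow from that choice, and the counts of members below are a description. In VDD HF female 2081 every one of the 9 members was at its highest level of the 24 libraries. Without it and VDD LF male 2078, 22 libraries remain. The level in 2081 exceeded all of them in 8 of 8 tested members, against 4.91% of the tested genes. The library had 173 reads of Cd3d, 201 of Cd3g, 250 of Lck and 507 of Il2rb, so counting error was small there. VDD LF male 2078 exceeded all 22 others in 6 of 8 tested members, against 6.48% of the tested genes. Cd4 was higher in CTRL LF female 2124 and Il2rb in CTRL LF male 2296 than in 2078. The labels do not set either mouse apart, and the comparisons of groups that hold them are given with and without them.

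Other tissues were present to unequal degrees. Summed levels of 9 skeletal muscle genes ran from 137 to 988300 in the 22 other libraries, those of 9 kidney genes from 17.7 to 9083 with the highest in VDD LF female 2303, and those of 6 adrenal genes from 24.3 to 32550. In 2081 these sums were 1154, 107 and 132, and in 2078 they were 238, 7.69 and 51.3, so both libraries lay within or below those ranges. The word renal stands in the names of 6 libraries, none of them 2081 or 2078, and what it means is not stated in the labels or methods.

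**Figure D1:**
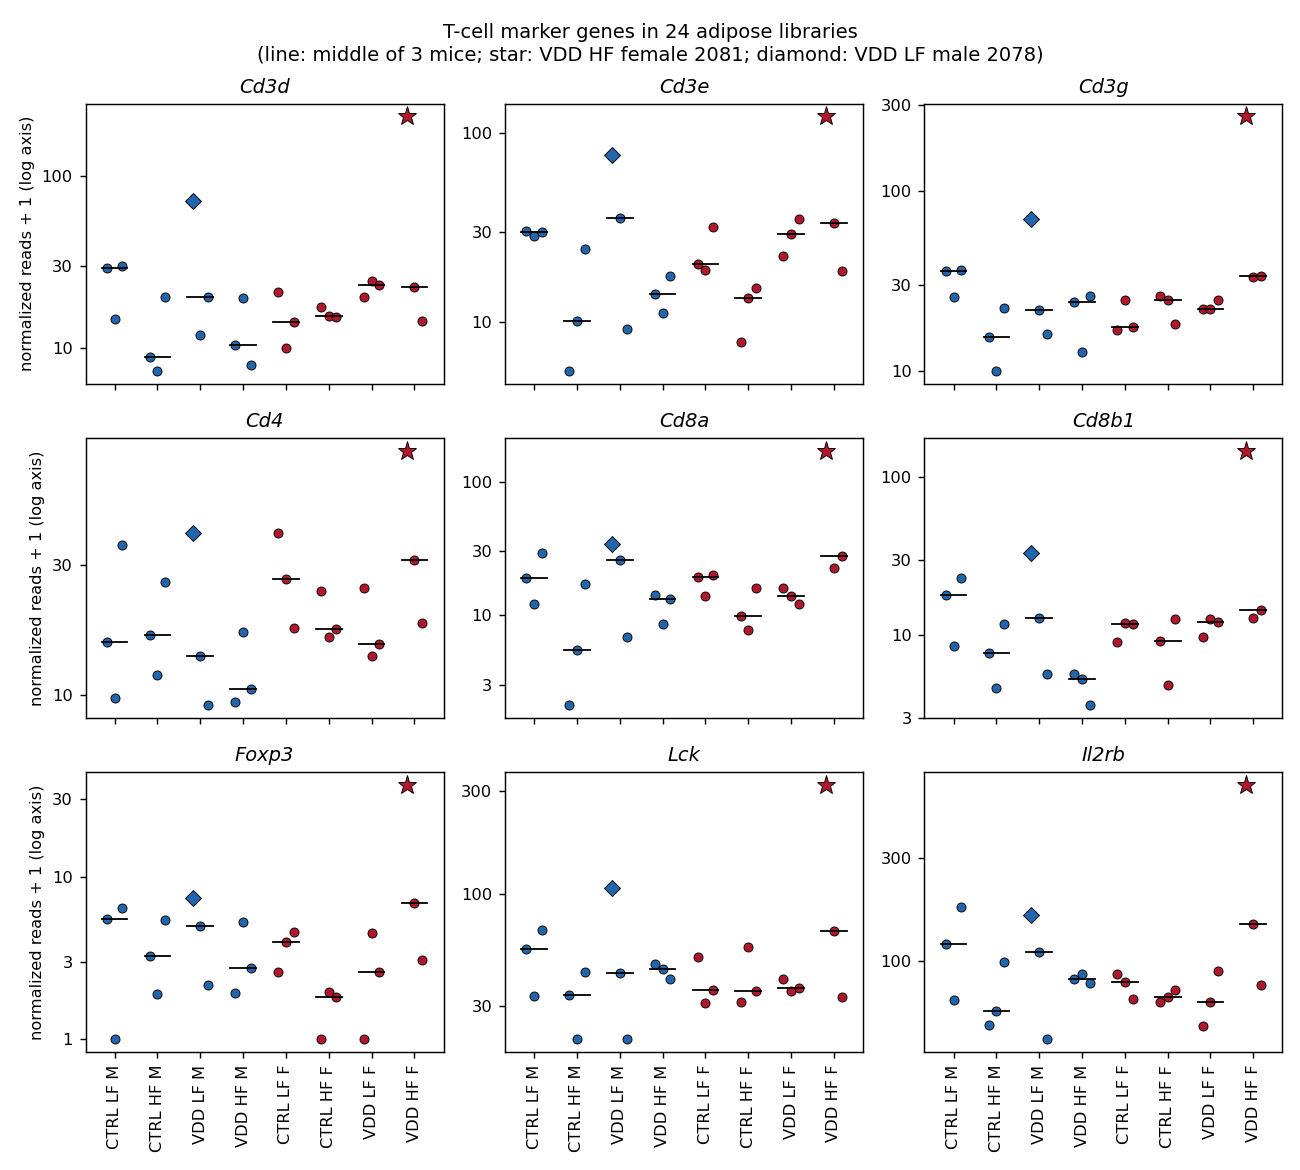
Level of each of the 9 members in every library (normalized reads + 1, log axis), by group with males in blue and females in red. The line is the middle of 3 mice, the star is VDD HF female 2081 and the diamond VDD LF male 2078. The star is the highest point in all 9 panels, and Foxp3 stays below 10 normalized reads in the 23 other libraries.

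Among the receptor subunits, Cd3d had 222 normalized reads in VDD HF female 2081, next to 21.6 and 13.4 in VDD HF females 2083 and 2121. VDD LF male 2078 had 70.5, next to 18.7 and 10.9 in the other VDD LF males. All other libraries lay between 6.34 and 29.1, so that outside these mice the groups overlapped broadly. In CTRL LF males Cd3d was at 28.1, 13.7 and 29.1, and in CTRL HF males at 7.84, 6.34 and 18.8. CTRL LF females had 20.04, 8.95 and 13.1, CTRL HF females 16.4, 14.4 and 14.1, VDD LF females 18.8, 23.5 and 22.4 and VDD HF males 9.35, 18.7 and 6.92.

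Cd3e, which also encodes a signalling chain of the CD3 complex, reached 122 in 2081 and 75.6 in 2078. CTRL LF males were close together at 29.3, 27.4 and 29.1, all above the CTRL HF males at 4.48, 9.06 and 23.2. CTRL LF females had 19.2, 17.9 and 31.0, all above the CTRL HF females at 6.84, 12.5 and 14.1. These were the only pairs of LF and HF groups on the same maternal diet that Cd3e separated. The VDD LF females were at 21.3, 28.2 and 34.3 and the VDD HF females other than 2081 at 32.4 and 17.5. In VDD LF males other than 2078 Cd3e was at 34.7 and 8.19, and in VDD HF males at 13.1, 10.2 and 16.4.

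Cd3g varied least within groups. Over the 22 libraries its coefficient of variation was 22.2%, close to the 20.8% that counting error alone gives at these depths. It had 258 in 2081 and 69.2 in 2078, and between 9.06 and 35.5 elsewhere. CTRL LF males had 34.9, 24.9 and 35.5, all above the CTRL HF males at 14.6, 9.06 and 21.4. VDD HF females other than 2081 had 32.4 and 32.9, above every CTRL HF female (25.3, 24 and 17.4) and every VDD LF female (21.3, 21.1 and 24).

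Averaged over the 3 CD3 genes on the log2 scale, the groups ran from VDD HF females at 5.61 ± 1.73 (SD, n = 3) to CTRL HF males at 3.61 ± 0.74. Between them stood CTRL LF males at 4.82 ± 0.30, VDD LF males at 4.81 ± 1.23, VDD LF females at 4.62 ± 0.18, CTRL LF females at 4.22 ± 0.14, CTRL HF females at 4.02 ± 0.09 and VDD HF males at 3.90 ± 0.07. Of the 7 neighbouring pairs in this order, VDD LF and CTRL LF females were the only ones whose mice did not overlap. Without 2081 the VDD HF females averaged 4.63, between CTRL LF males and CTRL LF females, and without 2078 the VDD LF males averaged 4.12.

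Lck, the kinase that starts receptor signalling, was at 321 in 2081 and 105 in 2078, and between 19.9 and 66.4 in the 22 others. The next highest were CTRL LF male 2296 with 66.4 and VDD HF female 2083 with 65.7. The VDD HF males were close together, from 38.9 to 45.8. CTRL LF males (32.4 to 66.4) and CTRL HF males (19.9 to 42.0) overlapped.

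The co-receptors did not share one order. Cd4 was 78.4 in 2081, 4.93 times the median of the 22 others and the smallest such ratio among the members, and the next levels were 38.5 in CTRL LF female 2124 and 38.4 in 2078. Macrophages and dendritic cells of other tissues can carry CD4 too, so Cd4 marks T cells less strictly than CD3 does. Cd8a, the chain present in every CD8 dimer, was 170 in 2081, which was 13.0 times that median, and it lay between 1.12 and 28.2 in the 22 others. VDD HF females 2083 and 2121 had 21.6 and 26.8 of it, above each CTRL HF female (8.89, 6.71 and 14.9) and each VDD LF female (15.0, 12.9 and 11.2). Cd8b1, which pairs with Cd8a on cytotoxic T cells, was 147 in 2081 or 15.0 times the median, 32.0 in 2078 and at most 21.8 elsewhere. In VDD HF males it lay between 2.60 and 4.68 and was left out of both comparisons with that group, because too few libraries reached 10 normalized reads.

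Within a library, the reads of Cd8a among those of Cd8a and Cd4 together had a median of 44.3% over the 24 libraries. The share was 68.4% in 2081 (132 of 193 reads, exact Clopper-Pearson 95% interval 61.3 to 74.9%) and 46.4% in 2078 (26 of 56 reads, 33.0 to 60.3%). VDD LF male 2302 followed 2081 with 65.8% (25 of 38 reads, 48.7 to 80.4%), so the interval of 2081 overlapped that of the next library. The lowest share was 6.67% in CTRL HF male 2127 (1 of 15 reads, 0.169 to 32.0%). These intervals cover counting error only.

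**Figure D2:**
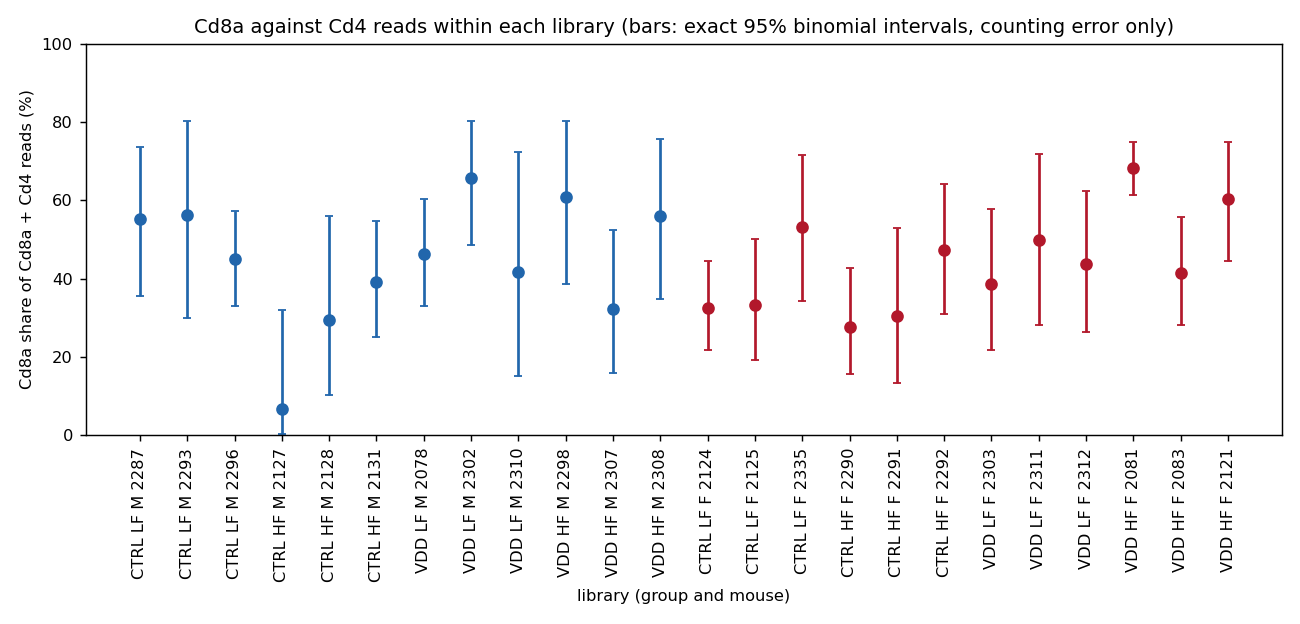
Share of Cd8a reads among the reads of Cd8a and Cd4 in each of the 24 libraries (%, males in blue, females in red), with exact 95% binomial intervals that cover counting error only. Most intervals overlap, and the shares run from 6.67% in CTRL HF male 2127 to 68.4% in VDD HF female 2081.

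Il2rb was the most abundant member, with 652 in 2081 and 42.1 to 176 in the 22 others. CTRL LF male 2296 had 176, above 2078 with 161, VDD HF female 2083 with 146 and CTRL LF male 2287 with 118. Its variation within groups over the 22 libraries was 37.2%, against 10.7% from counting error. Foxp3 was at 36.0 in 2081 (28 reads) and at most 6.41 in every other library, with 0 or 1 read in 8 libraries and 2 to 6 reads in 15.

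High levels in 2081 were seen for T-cell genes beyond the members. That library was chosen by its CD3 genes, which are among the members. For each gene its ratio to the median of the 22 libraries was taken, and the median of this ratio was 10.1 over the 8 tested members, against 0.993 over all tested genes. It was 5.86 over 19 genes of T-cell receptor chains and proximal signalling, 17 of which were at their highest in 2081. Trbc2, a constant segment of the receptor β chain, had 536 normalized reads there against a median of 32.2. It is nearly identical in sequence to Trbc1. Only uniquely mapped reads were kept, so reads that map to both are in neither count. Fyn, a kinase that is widely expressed, was the most abundant of that list and had 504 against 448. Surface co-receptors gave a median ratio of 5.86 (10 of 12 tested genes highest in 2081) and T-cell transcription factors 4.70 (6 of 12).

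Cytotoxic and natural killer genes stood out in the same library. All 8 tested genes of the cytotoxic list were at their highest in 2081, with a median ratio of 7.90, and Ccl5, a chemokine of activated T and natural killer cells, had 1100 against 66.4. All 11 natural killer genes were likewise highest there, with a median ratio of 6.39, and Klrd1, a receptor subunit of natural killer and CD8 T cells, had 229 against 33.2. Among 8 tested regulatory T-cell genes 3 were highest in 2081 and the median ratio was 1.34. Foxp3, a member and not in that list, had 36.0 there against a median of 1.9, though from 28 reads only. For the IL-2 family and its signalling the median ratio was 1.16 (4 of 13 highest). For 5 tested γδ T-cell genes it was 1.02.

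Markers of other cells were less raised there. B-cell genes had a median ratio of 2.15 with 0 of 12 at their highest, macrophage genes 2.06 with 2 of 12 and dendritic cell genes 3.19 with 6 of 11. Over the 5 tested genes of lymph node endothelium and stroma it was 0.986 with 0 at their highest. Of the untested lymph node genes, Ccl21a had 0 reads in all 24 libraries and Glycam1 in 21, 2081 and 2078 among them. Only uniquely mapped reads were kept, so the 0 reads of Ccl21a do not show that its RNA was absent. Madcam1 (10 reads) and Ccl19 (9 reads), named after their values were seen, were at their highest in 2081. They had 12.9 and 11.6 normalized reads there, against at most 11.2 in the 22 others for each. Rag1 and Rag2 of immature thymocytes had 0 reads in 22 and 23 libraries. Adipocyte genes had a median ratio of 1.11. In 2078 the median ratio was 2.96 for the members, 1.81 for receptor chains and signalling, 2.46 for natural killer genes, 3.00 for B-cell genes, 0.557 for macrophage genes and 0.144 for skeletal muscle genes. The part of these other cells in the level of the members was not tested.

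**Figure D3:**
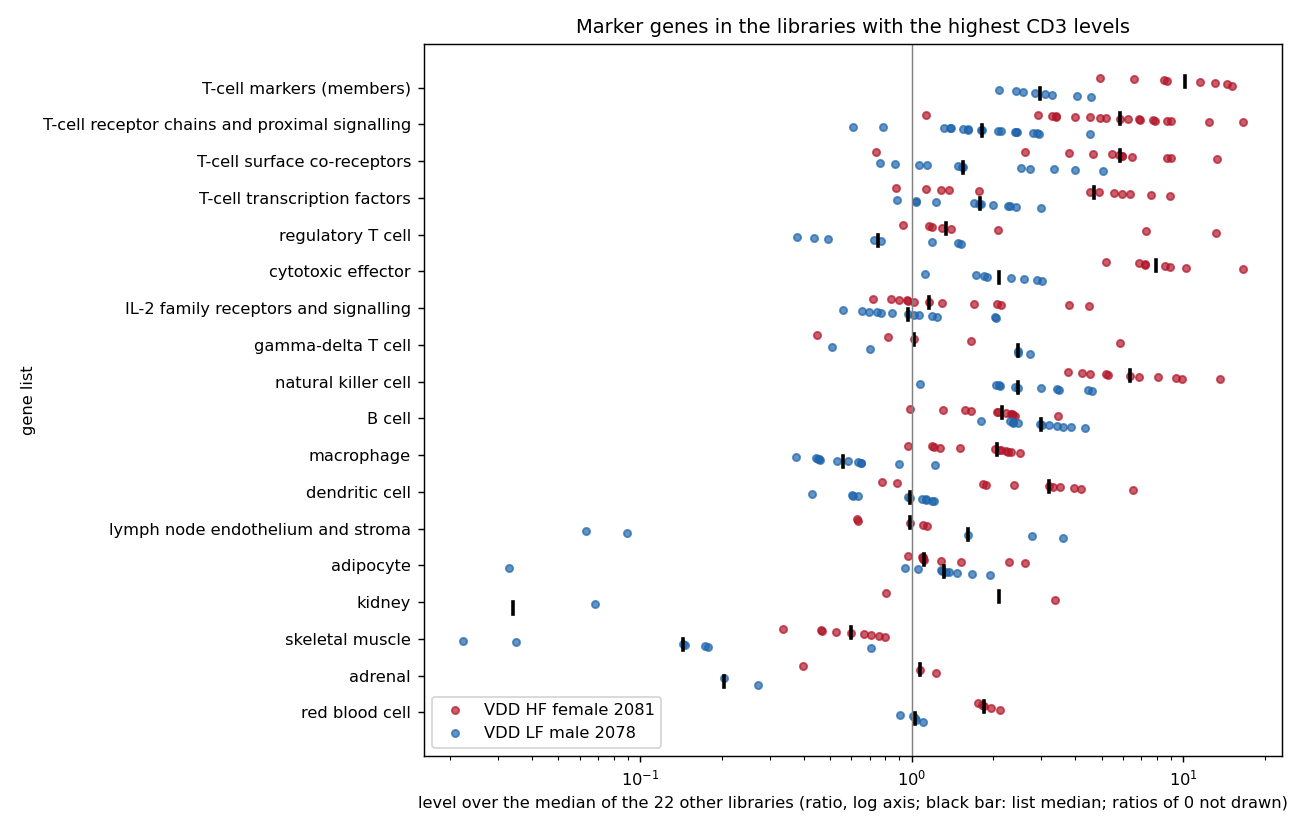
Level of each tested gene of 18 lists in VDD HF female 2081 (red) and VDD LF male 2078 (blue), as a ratio to its median in the 22 other libraries (log axis), with a black bar at the median of each list. T-cell marker, receptor, cytotoxic and natural killer genes lie well to the right of 1 in 2081, with list medians of 10.1, 5.86, 7.90 and 6.39, whereas adipocyte genes lie near 1.

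The members varied together across libraries, largely through this pair. Over the 24 libraries, the 28 pairs among 8 members correlated on the log2 scale with r between 0.549 (Cd3e with Cd4) and 0.922 (Lck with Il2rb) and a median of 0.793. Without 2081 and 2078 the range was 0.209 to 0.799 and the median 0.508. Among the CD3 genes, r over 24 libraries was 0.839 (Cd3d with Cd3g), 0.766 (Cd3e with Cd3g) and 0.749 (Cd3d with Cd3e). Without the pair of libraries these were 0.413, 0.524 and 0.463, so the CD3 genes did not stand out among the members. The points are libraries that differ in depth and in the tissues they hold, so these are descriptions.

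The genes most like the CD3 genes were sought among 18391 others, by the correlation of their log2 level with the mean of the 3 CD3 genes over 24 libraries. In order they were Trbc2 (r = 0.934), Lat (0.911), Ccl5 (0.907), Trbc1 (0.890), Ms4a4b (0.887), Gimap3 (0.885), Themis (0.863), Sh2d2a (0.862), Klrd1 (0.858) and Klre1 (0.857). Lat, Themis and Sh2d2a encode adaptors of receptor signalling, and Klre1 a receptor of natural killer cells. Of the 10, 8 were in the lists above, and their r on deviations from the group means lay between 0.772 and 0.945. When the pair of libraries was left out, Trbc2 (0.806) and Gimap3 (0.767) were the only genes of this order left among the first 10.

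Calls rested on limma fits over all tested genes and needed both an adjusted p (Benjamini-Hochberg) below 0.01 and a fold of more than 1.5 or less than 0.66. No member was called in any of 14 comparisons. Between groups these fits called few genes of any kind, at most 12 of 15965 (VDD LF vs. VDD HF males). The study, which used DESeq2, lists far more genes at these thresholds in each comparison between groups. That 0 members were called there thus does not show that they stayed unchanged. The smallest adjusted p among the 110 fits of members was 0.117 (Cd3e, HF against LF), and limma-voom, run on reads recovered from the deposited values, called 0 members too. Values below are log2 fold changes, on the scale of log2(normalized reads + 1), which understates changes of genes with few reads.

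Maternal diet under LF was compared first. For CTRL LF vs. VDD LF males, 0 of 8 tested members were called, as were 0 of 15438 genes (0%), and 0 members had an unadjusted p under 0.05, against 6.79% of all genes. The members did not separate the groups in any case, whereas 13.4% of genes did. Their median was −0.08, from −0.28 for Il2rb to 0.14 for Cd3d. Without 2078, the VDD LF male with the highest CD3 level, the median was −0.70 and all 8 were lower, whereas without VDD LF male 2310 it was 0.43 and all 8 were higher, and without CTRL LF male 2296 it was 0.11 with 7 of 8 higher. None had p under 0.05 in these fits, so the direction depended on the mouse left out. For CTRL LF vs. VDD LF females, 0 of 8 members were called (0% of 16046 genes), 0 had p under 0.05 (12% of genes) and 0 separated the groups (18.2%). Values were spread around 0 with a median of 0.02, from −0.61 ± 0.41 (SE) for Cd4 to 0.65 ± 0.37 for Cd3d. In both of these comparisons limma-voom gave 0 members with p under 0.05.

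Maternal diet under HF gave different values in the sexes. In the males of CTRL HF vs. VDD HF, 0 of 7 tested members were called (0% of 16013 genes), 0 had p under 0.05 with either tool (5.31% of genes with limma) and 0 separated the groups (10.3%). The median was 0.34, from −0.55 for Cd4 to 1.00 for Cd8a. Without CTRL HF male 2127 it was 0.12 over 7 members. Without CTRL HF male 2131 it was 0.67, over the 5 members that then passed the filter. For CTRL HF vs. VDD HF females all 8 tested members were higher in VDD HF, with a median of 1.54 against 0.00 over all genes. None was called (0% of 16480 genes). An unadjusted p under 0.05 was found for Cd8a (2.17 ± 0.80, SE, adjusted p = 0.248) and Cd3e (1.88 ± 0.72, adjusted p = 0.261), against 16.7% of genes, and with limma-voom for Cd3e only. Cd3e, Cd3g, Cd8a, Cd8b1 and Il2rb did not overlap between the groups, which was so for 22.9% of genes. Without 2081 the median was 0.61, and the 8 values lay between 0.19 (Cd3d) and 1.25 (Cd8a, adjusted p = 0.243). Cd3e then had 1.11, and Cd8a was the only member whose unadjusted p was still under 0.05. Without VDD HF female 2121 in place of 2081, 6 members had p under 0.05 and the median was 2.18, while without CTRL HF female 2290 or 2291 that number was 0.

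Offspring diet was compared on each maternal diet. For CTRL LF vs. CTRL HF males all 8 tested members were lower under HF, with a median of −1.06 against −0.02 over all genes. None was called, as against 9 of 15583 genes (0.0578%). Cd8a differed by −1.69 ± 0.72 (SE, adjusted p = 0.25), Cd3e by −1.43 ± 0.52 (adjusted p = 0.193), Cd3d by −1.12 ± 0.50 (adjusted p = 0.265) and Cd3g by −1.10 ± 0.39 (adjusted p = 0.185). These 4 had an unadjusted p under 0.05, against 18.8% of genes, and limma-voom gave 4 as well. Il2rb (−0.77), Lck (−0.69) and Cd8b1 (−1.02) did not pass that level, and Cd4 was at −0.03 with a 95% interval of −1.22 to 1.16. Cd3e and Cd3g separated the groups, against 24.7% of genes. The number of members with p under 0.05 ranged from 1 to 7 as single libraries were left out: leaving out CTRL LF male 2293 gave 7, leaving out CTRL HF male 2131 gave 5, and leaving out any of the other 4 mice (CTRL LF males 2296 and 2287, CTRL HF males 2127 and 2128) gave 1. The median stayed between −1.38 and −0.74.

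In VDD males (VDD LF vs. VDD HF males) the 7 tested members were lower under HF too, with a median of −0.53, but 0 were called (0.0752% of 15965 genes), 0 had p under 0.05 with either tool (25.9% of genes with limma) and 0 separated the groups (33.4%). The values ran from −1.13 ± 0.74 (SE) for Cd3d to −0.06 ± 0.59 for Lck. Without 2078 the median was −0.04 over the 6 members that then passed the filter, with Lck at 0.55 and Cd3d at −0.38. Without VDD LF male 2310, which had the lowest levels of that group in 8 of 9 members, Cd3e stood at −1.91 with an adjusted p of 0.0372, the median was −0.98 and 3 members had an unadjusted p under 0.05.

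For CTRL LF vs. CTRL HF females 0 of 8 members were called (0% of 16563 genes). Cd3e was lower under HF by −1.01 ± 0.40 (SE, adjusted p = 0.145) and had no overlap between the groups. It was the single member below 0.05, with limma-voom too, against 28.8% of genes, and the single one without overlap, against 35.2%. The other values lay between −0.75 for Cd8a and 0.21 for Cd3g. For VDD LF vs. VDD HF females all 8 members were higher under HF, with a median of 1.33, and 0 were called (0% of 15923 genes). None had p under 0.05 with either tool (5.05% of genes with limma), and the nearest to it was Cd8a (1.76 ± 0.77, SE, adjusted p = 0.837). Cd3g, Cd8a and Cd8b1 did not overlap between the groups, against 11.6% of genes. Without 2081 the median was 0.40, and Cd3d and Cd3e were lower under HF, at −0.32 and −0.20. Without VDD HF female 2121 instead, the median was 1.96 and 4 members had p under 0.05. Each pair of comparisons that names the same group shares its 3 libraries, so their values are not independent.

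**Figure D4:**
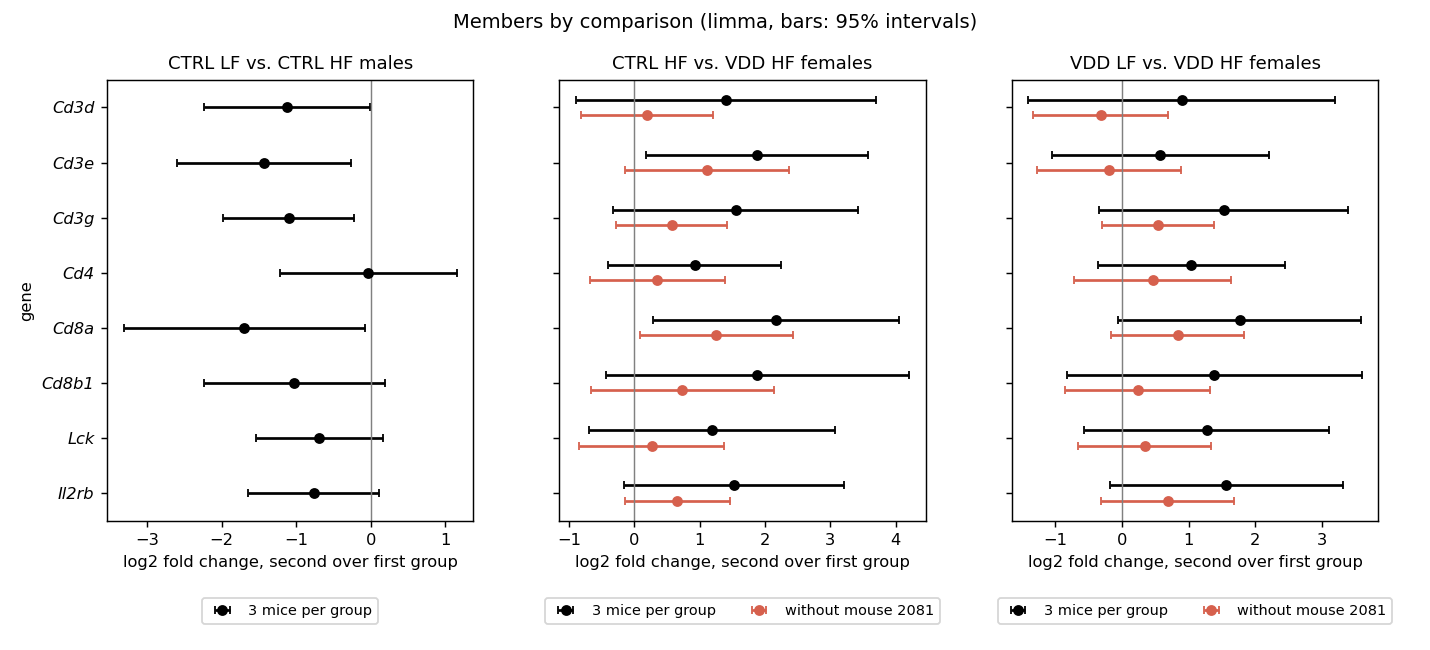
Log2 fold change of the 8 tested members (second group over first, limma, bars are 95% intervals) in 3 comparisons, with 3 mice per group in black and without VDD HF female 2081 in red. In males the CD3 genes and Cd8a lie below 0 while Cd4 lies at −0.03, and in females the medians are 1.54 and 1.33 with all mice and 0.61 and 0.40 without 2081.

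Contrasts over all 24 libraries used 1 mean per group. With HF minus LF, averaged over the 4 pairs, 0 of 8 members were called, whereas 1736 of 18399 genes were (9.44%). Cd3e differed by −0.72 ± 0.34 (SE, adjusted p = 0.117) and was alone below 0.05, with limma-voom too, against 39.7% of genes. Its value was negative in both male pairs and in CTRL females, and positive in VDD females only with 2081 in the group. Leaving out 2081 gave an adjusted p of 0.0325 and leaving out VDD LF male 2310 one of 0.0202, the smallest in 2297 fits of members. As single libraries were left out, 0 to 3 members had p under 0.05, with 3 without 2081. The median was −0.15, and −0.38 without 2081, 0.02 without 2078 and −0.24 without both. The other 7 members lay between −0.38 (Cd8b1) and 0.14 (Lck). With VDD minus CTRL, 0 members were called (0.103% of genes), 0 had p under 0.05 with either tool (22.9% of genes with limma), and the median was 0.44. It was 0.20 without 2081, 0.29 without 2078 and 0.05 without both. With female minus male, 0 were called (7.27% of genes) and 0 had p under 0.05 with either tool (33% of genes with limma). The median was 0.34, and it was 0.10 without 2081, 0.52 without 2078 and 0.28 without both. Cd4 had the smallest p (0.59 ± 0.29, SE, adjusted p = 0.165).

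Interactions asked whether one factor changed the response to another. For maternal by offspring diet in males, 0 members were called (0% of genes) and 0 had p under 0.05 with either tool (4.1% of genes with limma), with a median of 0.46 and values from −0.50 for Cd4 to 1.05 for Cd8a. Without 2078 the median was 1.04 and all 8 were positive, and without both 2078 and 2081 it was 1.04 as well, with 2 members below 0.05. Without VDD LF male 2310 it was −0.07, and leaving out CTRL HF males 2127, 2128 and 2131 in turn gave 0.09, 0.28 and 0.84. In females all 8 were positive with a median of 1.54, and 0 were called (0% of genes). Cd8a (2.49 ± 1.05, SE, adjusted p = 0.767) and Il2rb (1.74 ± 0.80, adjusted p = 0.777) had p under 0.05, against 6.36% of genes, and with limma-voom Cd8a only. Without 2081 the median was 0.71 and 0 members had p under 0.05, as was so without CTRL HF female 2291, and without VDD HF female 2121 there were 6.

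For offspring diet by sex, the HF minus LF difference in females minus that in males and averaged over both maternal diets, all 8 members were positive with a median of 1.39 against 0.01 over all genes. None was called (0.0272% of genes). Cd3g (1.69 ± 0.61, SE, adjusted p = 0.427), Cd8b1 (1.76 ± 0.74, 0.494), Cd8a (1.69 ± 0.74, 0.512) and Cd3d (1.64 ± 0.77, 0.549) had an unadjusted p under 0.05, against 8.92% of genes, whereas limma-voom gave Cd3g only. That number ranged from 1 to 7 as single libraries were left out. Leaving out 2081, 2078, CTRL LF male 2296 or CTRL HF female 2292 gave 1 and leaving out VDD LF male 2310 gave 7. It was 2 without CTRL HF male 2127 or 2128 or CTRL LF female 2125, 6 without VDD HF female 2121 and 3 to 5 in all other cases. The median was 0.87 without 2081, 1.10 without 2078 and 0.58 without both.

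**Figure D5:**
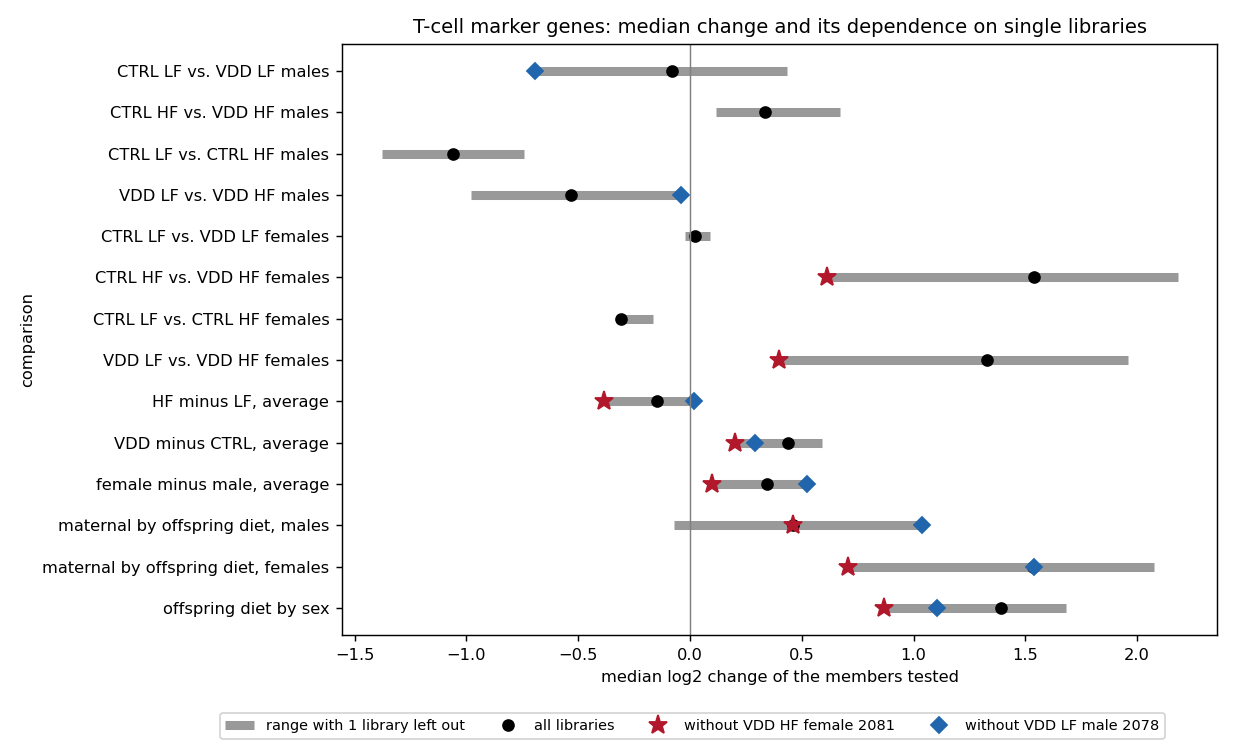
Median log2 change of the tested members in each of 14 comparisons with all libraries (black), the range when 1 library is left out (grey bar), and the value without VDD HF female 2081 (star) or VDD LF male 2078 (diamond). The 3 highest medians, 1.54, 1.54 and 1.39, involve VDD HF females and are 0.61, 0.71 and 0.87 without 2081, whereas CTRL LF vs. CTRL HF males stays between −1.38 and −0.74.

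Other genes of T cells and related lists were read in the same fits. In each of the 8 comparisons between groups, 0 genes of the T-cell, cytotoxic, IL-2 family, γδ T-cell and natural killer lists were called. In CTRL LF vs. CTRL HF males, where the members had a median of −1.06, it was −0.22 over 15 tested receptor and signalling genes (1 with p under 0.05, lower), −0.24 over 6 cytotoxic genes (1, lower) and −0.72 over 9 natural killer genes (2, lower, and all 9 negative). B-cell genes had −1.22 (5 of 12 with p under 0.05, all lower). Macrophage genes had 0.50 (2 of 12, higher). In CTRL HF vs. VDD HF females, the medians were 0.54 for 17 receptor and signalling genes, 0.84 for 7 cytotoxic genes and 0.81 for 8 natural killer genes, with 0 below 0.05 in these 3 lists, and −0.42 for 12 macrophage genes. Without 2081 these medians were 0.09, 0.04 and 0.01, while that of the macrophage genes was −1.002, with 10 of 12 below 0.05 and 0 called.

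Calls among these lists were made in the contrasts over 24 libraries. With HF minus LF, Thy1 rose by 1.44 ± 0.17 (SE, adjusted p = 1.73e-05). It encodes a surface protein of T cells that fibroblasts and stromal cells carry too, and it had 99.8 to 560 normalized reads in the 22 libraries. Il2rg, the receptor chain that pairs with Il2rb, rose by 0.72 ± 0.16 (adjusted p = 0.0025), while Il15ra fell by 0.74 (adjusted p = 0.00294). Each of these 3 was called with limma-voom too, and without 2081, while without both 2081 and 2078 Il15ra was not called. Socs1, an inhibitor of cytokine signalling, and Lrrc32, which displays latent TGF-β on regulatory T cells and on endothelium, rose by 0.80 and 0.59, but neither was called with limma-voom or without 2081. With female minus male, Trac, the constant segment of the receptor α chain, was higher by 1.30 ± 0.32 (adjusted p = 0.00831), at 26.5 to 180 normalized reads across females, against 7.02 to 47.4 across males. It was not called without 2081 or with limma-voom, but was called without 2078 and without both mice. Gata3 (1.97) and Tcf7 (1.05), factors of T-cell development, were called in females with limma and not with limma-voom. Gata3 ranged from 16.3 to 428 among females, and epithelial cells use it as well. Adrenal genes moved with sex as well, with a summed level of 71.6 to 32550 in females and of 24.3 to 317 in males, and their part in these differences was not tested.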

How the data were processed

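Retroperitoneal white adipose tissue of 24 mice in 8 groups was profiled with a stranded paired-end kit for polyadenylated RNA. Per the submitters' processing notes and the study's methods, reads were trimmed with Sickle and aligned to mm10 with STAR 2.7.0d, uniquely mapped reads were kept, transcripts were added with Cufflinks 2.2.1, and genes were counted with featureCounts 1.6.1. SAMtools 1.9, MultiQC and DESeq2 are named too. The strand setting of the counting is not stated, so reads of overlapping genes on opposite strands cannot be assigned with certainty.

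The authors deposited 8 tables, 1 per comparison of groups, whose library columns hold log2(normalized reads + 1). Each table was normalized separately by the authors. Their columns of fold changes and p-values were not used. The deposited log2 values were turned back into whole reads: 100% of the values came out whole within 0.02. Of 56899 entries, 4 with repeated names were left out, leaving 56895 genes. The reads on genes per library ranged from 13346779 to 18484346. Libraries were named by group and by the mouse number in the column name, and 0 columns could not be assigned to a group.

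Comparisons between groups were fitted with limma 3.58.1 (empirical Bayes with a trend) in R 4.3.3 on the log2 values of each table, after removal of genes that reached 10 normalized reads in fewer than 3 libraries. The 6 contrasts over 24 libraries used recovered reads scaled together by median-of-ratios size factors, with a pseudocount of 1. Calls needed a Benjamini-Hochberg adjusted p under 0.01, the study's level, and a fold above 1.5 or below 0.66. Unadjusted p-values under 0.05 were counted beside them, and all are two-sided. The alternatives were limma-voom on recovered reads, a pseudocount of 10, trimmed mean of M-values, no filter, an adjusted p under 0.05 without a fold, and leaving out each library. When a library was left out the filter was applied again, so the members behind a median could change. Before use, the fits were run on simulated counts with large set changes and a common spread for all genes. That run does not measure how many real changes of the members the fits would find. Within-group pairs of libraries differed by more than counting noise in all 24 cases, so none was counted once.

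The members and gene lists were chosen with earlier results of these data known. All 9 members are described. From each list the text names the 2 genes with the highest mean level, the 2 with the smallest p in a comparison described, any called gene (1 is not reported here), and the 10 genes most like the mean of the CD3 genes. Tables were handled in Python 3.11.15 with pandas 2.3.3, numpy 2.4.6, scipy 1.17.1 and matplotlib 3.10.9. Upstream sequences were taken from RefSeq for 6 of 9 members.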

Additional observations from a re-analysis of the deposited data

How the results depend on the processing

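Across 1129 values recomputed under the alternatives, 1123 were within the limits set for them. The number of members called stayed at 0 in all 276 cases. Single members kept their direction in 586 of 591, and in all 169 with all libraries kept. All tested members entered that count for CTRL LF vs. CTRL HF males, CTRL HF vs. VDD HF females, VDD LF vs. VDD HF females and offspring diet by sex. Elsewhere only members with an unadjusted p under 0.05 entered it. CTRL LF vs. VDD LF males had none, and there all 8 were lower without VDD LF male 2078 and higher without VDD LF male 2310. The median over the members moved by less than 1 SD between mice in 261 of 262 cases, but this SD was wide and the median turned sign in some. With 1 library left out, it ran from −0.70 to 0.43 for CTRL LF vs. VDD LF males, from −0.07 to 1.04 for maternal by offspring diet in males and from −0.38 to 0.02 for HF minus LF. For CTRL LF vs. CTRL HF males, Cd4, at −0.03 with all mice, was 0.47 without CTRL LF male 2296 and 0.23 without CTRL HF male 2128, over a range of −0.45 to 0.47. For VDD LF vs. VDD HF females, Cd3d and Cd3e turned to −0.32 and −0.20 without VDD HF female 2081, over ranges of −0.32 to 1.67 and −0.20 to 1.18. Without both this mouse and VDD LF male 2078, an alternative added after seeing the data, the median for offspring diet by sex was 0.58 in place of 1.39, and Cd4 was at −0.035. The cause of these shifts was not tested. No paired analysis was possible because the columns carry mouse numbers and not the replicate numbers of the labels. At these read counts, counting error alone gave coefficients of variation of 10.7% for Il2rb and 32.2% for Cd8b1, which limits what the members with few reads can show.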

Other observations

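Calls were made in the dendritic cell and macrophage lists as well, and none in those of B cells and natural killer cells. With HF minus LF, 5 of 11 tested dendritic cell genes rose, among them Itgax, which encodes the integrin CD11c of dendritic cells and of macrophages in obese fat, by 2.04 on the log2 scale. Batf3 and Xcr1, the factor and a receptor of cross-presenting dendritic cells, rose by 1.04 and 0.96, and Cd209a and Irf8 by 1.06 and 0.68, of which Irf8 was not called with limma-voom or without VDD HF female 2081. Cd68, a lysosomal protein of macrophages, rose by 0.94 under HF, a call lost without VDD LF male 2078, and was lower in females than in males by 1.07 on the log2 scale.

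Cxcl13, the chemokine that draws B cells, was the single gene of the lists called between groups in CTRL LF vs. CTRL HF males. Its level was 876 ± 85.6 normalized reads in CTRL LF males and 94.6 ± 19.0 in CTRL HF males (SD, n = 3), so that it fell by 3.22 on the log2 scale (limma, adjusted p = 0.000498). The summed level of the B-cell genes ranged from 572 to 29630 in 22 libraries, and was 3263 in VDD HF female 2081 and 4639 in VDD LF male 2078.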
